A study of Homo sapiens with 10 samples.

Results

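The zinc-fingers and homeoboxes family comprises ZHX1, ZHX2 and ZHX3, and HOMEZ is a related gene whose protein carries homeodomains and leucine zippers. These 4 genes were taken by symbol, with every probe set annotated to them, out of 22432 genes named on the arrays. Of the 4, 3 had a probe set of their own, namely ZHX2, ZHX3 and HOMEZ. ZHX1 was read only by a probe set that it shares with its neighbour C8orf76 through the ZHX1-C8orf76 readthrough transcript, and this probe set is called ZHX1/C8orf76 here. ZHX3 had a brighter and a dimmer probe set, so 5 probe sets were followed in all.

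ZHX proteins pair zinc fingers with several homeodomains, bind one another, and were first known as partners of the A subunit of the CCAAT-binding factor NF-Y. ZHX2 is best known in liver, where it holds down fetal genes such as AFP after birth. In clear-cell renal carcinoma ZHX2 protein is a substrate of the von Hippel-Lindau (VHL) ubiquitin ligase and accumulates when VHL is lost, and it is linked there to the NF-κB pathway, whose p65 subunit is encoded by RELA.

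The data are array signals of total RNA from 786-O, a cell line established from a human clear-cell renal carcinoma and deficient in VHL. All cells were infected with lentivirus and selected with puromycin at 2 ug/ml, the controls included. One deposited table holds 6 arrays, with 2 each of scrambled control, ZHX2 hairpin 44 and ZHX2 hairpin 45, and the other holds 4 arrays, with 2 each of control shRNA and p65 shRNA. The labels do not say whether replicates came from separate cultures, so the p-values measure only the spread between arrays, which may be technical, and all cells are of 1 line.

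Over all genes, replicate arrays correlated at 0.985 to 0.995. Array medians were 6.15 to 6.22 log2 units in the ZHX2 table and 1.87 to 1.89 in the p65 table, so the tables were fitted apart and no level was set across them. Marker percentiles rank each gene's mean over all arrays of a table among genes. The 6 measured markers of a renal carcinoma line had a median percentile of 97.7 in the ZHX2 table and 96.5 in the p65 table. In the mean of both ZHX2 hairpins 1 of them rose (KRT18, 0.62) and 1 fell (PAX8, -0.38) at a limma adjusted p under 0.05. Of all rows, 11.9% were higher and 6.41% lower at that threshold. The median percentiles in the 2 tables were 17.5 and 23.2 for 4 leukocyte markers, 23.4 and 20.5 for 5 endothelial markers, and 21.5 and 37.7 for 3 fibroblast markers. Single renal markers ranged from 61.1 to 99.7 in the ZHX2 table and from 42.3 to 98.6 in the p65 table, lowest for KRT18. Single fibroblast markers ranged from 3.33 to 46.1 and from 7.31 to 76.2, highest for LUM. In the scrambled arrays themselves LUM lay at percentiles 59.0 and 54.6. No leukocyte or endothelial marker exceeded 33.2 on the mean over arrays. On single arrays of the p65 table CD14 reached 41.8 (control shRNA replicate 1) and TEK 41.2 (p65 shRNA replicate 2). Of those 12 markers of other cells, only the fibroblast marker LUM passed the test in the ZHX2 table (log2 change -0.95, SE 0.091, adjusted p = 0.00316, mean of both hairpins against scrambled). Its part in the results was not tested. In the p65 table RELA, the targeted gene, read 7.64 and 7.67 in the control arrays and 5.04 and 5.28 in the p65 arrays, a log2 change of -2.50 (SE 0.178, adjusted p = 0.0734).

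Promoter sequences are shown because NF-Y, the partner through which the family was found, binds the sequence CCAAT. RefSeq's promoter table for the human assembly GRCh38.p14 matched 2 of the 4 members, HOMEZ and ZHX3. The windows are the 250 bases before an annotated start, 5′ to 3′ on the gene's strand, and capitals mark CCAAT. HOMEZ is on the minus strand of chromosome 14 at chr14:23286133-23286382, and the first of the 2 ZHX3 windows is on the minus strand of chromosome 20 at chr20:41317732-41317981.
HOMEZ: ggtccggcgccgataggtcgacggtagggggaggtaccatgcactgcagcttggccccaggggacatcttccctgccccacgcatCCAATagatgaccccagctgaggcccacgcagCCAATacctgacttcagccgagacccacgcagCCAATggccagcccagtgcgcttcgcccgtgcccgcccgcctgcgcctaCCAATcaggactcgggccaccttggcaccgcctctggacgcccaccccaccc
ZHX3: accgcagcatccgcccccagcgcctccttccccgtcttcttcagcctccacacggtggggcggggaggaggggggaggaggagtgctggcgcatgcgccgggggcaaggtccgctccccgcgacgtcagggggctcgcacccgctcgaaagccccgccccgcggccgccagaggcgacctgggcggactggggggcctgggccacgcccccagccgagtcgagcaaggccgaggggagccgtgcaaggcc
The HOMEZ window held 4 copies of CCAAT, all on the sense strand, beginning 165, 133, 101 and 52 bases before the start. The ZHX3 window held 0 copies on either strand, and so did the other ZHX3 window at chr20:41300121-41300370. CCAAT on either strand occurred in 32.0% of 35116 windows of the same length, and 307 of them (0.874%) held 4 or more copies. The ZHX3 window shown had a GC content of 76.4% with 27 CpG dinucleotides, HOMEZ had 68.0% with 18, and the other ZHX3 window had 36.8% with 0. The NF-κB consensus, searched on both strands, was in 9.96% of all windows and in none of these 3. These are matches of letters only.

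The first question was how far each hairpin lowered its target. ZHX2 RNA was lower with both hairpins in every array. The ZHX2 signal was 10.58 and 10.43 in the scrambled arrays, 9.35 and 9.38 for hairpin 44, and 8.93 and 9.03 for hairpin 45. No array of either hairpin overlapped the scrambled arrays, and the hairpin 45 arrays lay below those of hairpin 44. Group means were 10.51 ± 0.103, 9.37 ± 0.0243 and 8.98 ± 0.0671 (SD, n = 2 each).

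With hairpin 44 the change of ZHX2 was -1.14 log2 units (SE 0.0862, adjusted p = 0.00528), which left 45.4% of the control signal (95% interval 39.2 to 52.5%). With hairpin 45 it was -1.53 (SE 0.0862, adjusted p = 0.000926), which left 34.7% (29.9 to 40.1%). ZHX2 was the only member called with either hairpin, where called means a Benjamini-Hochberg adjusted p under 0.05 from limma over all 22433 tested rows. The background share called was 7.65% of rows for hairpin 44 and 20.1% for hairpin 45. These comparisons share their scrambled arrays. The call for hairpin 44 was lost when either of its arrays was left out (adjusted p = 0.0662 without replicate 1 and 0.0649 without replicate 2), while the change stayed at -1.12 and -1.16.

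In the mean of both hairpins ZHX2 changed by -1.33 (SE 0.0746, adjusted p = 0.00105), to 39.7% of the scrambled signal (34.9 to 45.0%). On this scale 48 of the other tested genes fell further than ZHX2 itself. The call was kept in each of the 15 alternative settings, with changes between -1.43 and -1.26.

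Hairpin 45 left less ZHX2 signal than hairpin 44. The difference was -0.39 log2 units (SE 0.0862, 95% interval -0.60 to -0.18), or 76.4% of the hairpin 44 signal. It did not pass the adjustment over all genes (adjusted p = 0.152), and passed it where the moderation followed the intensity of the probe sets (adjusted p = 0.00515, with 6.54% of rows called in that setting). The background share called between the hairpins was 0.397%, and 0 members were called.

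**Figure D1:**
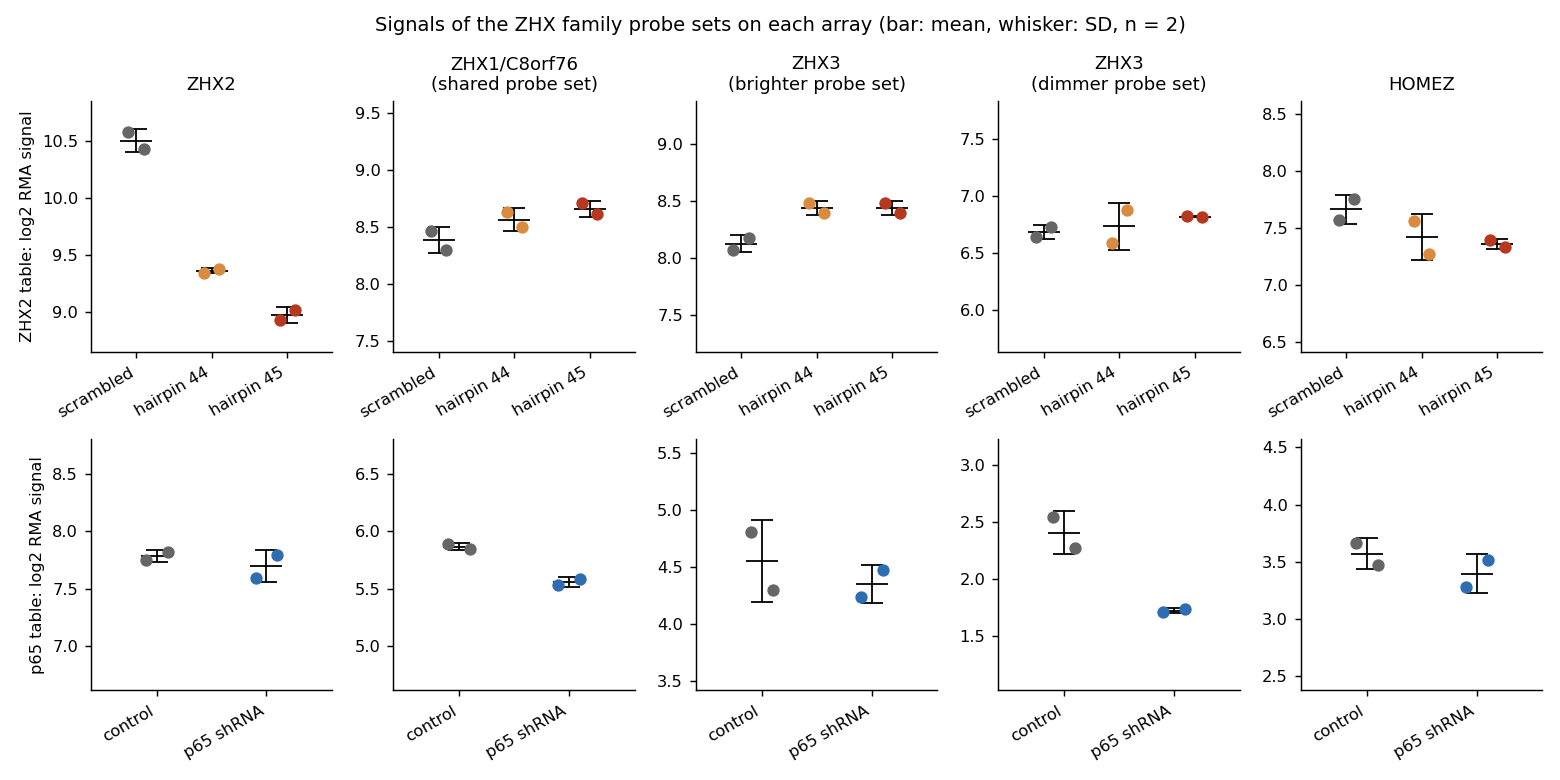
Log2 RMA signal (vertical axis) of the 5 family probe sets on each array, by group (horizontal axis), in the ZHX2 table (upper row) and the p65 table (lower row). Points are arrays, bars are means and whiskers are SD over 2 arrays, and all panels span the same number of log2 units. The ZHX2 panel falls from 10.51 to 9.37 and 8.98, while the group means in the other upper panels differ from scrambled by at most 0.31.

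The other members were then examined for movement beside ZHX2. ZHX3, a paralog that can pair with ZHX2, was higher after ZHX2 knockdown on its brighter probe set. That probe set read 8.07 and 8.17 in the scrambled arrays, 8.48 and 8.39 for hairpin 44, and 8.48 and 8.39 for hairpin 45. The hairpin arrays lay above both scrambled arrays and covered the same range for both hairpins.

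ZHX3 rose by 0.31 in the mean of both hairpins (SE 0.0728, adjusted p = 0.0352), to 124% of the scrambled signal (95% interval 110 to 140%). The mean change was the same 0.31 for each hairpin alone, and neither passed the threshold (adjusted p = 0.0817 for hairpin 44 and 0.0509 for hairpin 45). Between hairpins the difference was -0.0018 (95% interval -0.21 to 0.20). With ZHX3, 2 members were called in the mean of both hairpins, 1 higher and 1 lower, where 18.3% of all rows were called, 11.9% higher and 6.41% lower. The share of calls that were higher was 64.9%, 53.2% after a further quantile normalization and 73.0% after median centring. The ZHX3 call was lost in 11 of 15 alternatives, among them the removal of any 1 of the 6 arrays, with adjusted p between 0.0591 and 0.114 there, and its change was positive in each.

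The dimmer ZHX3 probe set did not repeat the rise. It read 6.64 and 6.73 in the scrambled arrays, 6.59 and 6.88 for hairpin 44, and 6.82 and 6.81 for hairpin 45, so the groups overlapped for hairpin 44. Its change in the mean of both hairpins was 0.09 (SE 0.106, adjusted p = 0.666 over all 53617 probe sets). Only the annotation of the ZHX2 table's platform assigns this probe set to ZHX3. RefSeq places ZHX3 on the minus strand of chromosome 20. Of the 10 named probe sets nearest in identifier order, 10 of 10 belong to plus-strand genes around the dimmer probe set and 10 of 10 to minus-strand genes around the brighter one. Which strand the dimmer probe set reads was not tested.

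HOMEZ had lower values after ZHX2 knockdown, and the difference did not pass the test. It read 7.57 and 7.75 in the scrambled arrays, 7.56 and 7.27 for hairpin 44, and 7.39 and 7.33 for hairpin 45. Every hairpin array lay below both scrambled arrays, though the nearest pair differed by less than the spread within either group. The change was -0.27 in the mean of both hairpins (SE 0.106, 95% interval -0.53 to -0.01, adjusted p = 0.139), -0.24 with hairpin 44 and -0.30 with hairpin 45.

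The ZHX1/C8orf76 probe set was higher in each hairpin array than in either scrambled array. It read 8.46 and 8.30 in the scrambled arrays, 8.63 and 8.50 for hairpin 44, and 8.71 and 8.61 for hairpin 45. The change in the mean of both hairpins was 0.23 (SE 0.084, 95% interval 0.02 to 0.44, adjusted p = 0.119). It was 0.18 with hairpin 44 (adjusted p = 0.317) and 0.28 with hairpin 45 (adjusted p = 0.102). With moderation that followed intensity the mean of both hairpins passed (adjusted p = 0.0348), where 26.2% of rows were called. All 4 member rows thus had hairpin and scrambled arrays that did not overlap, which was true of 38.3% of all rows. ZHX1 transcripts and those of C8orf76 cannot be told apart on this probe set.

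Whether ZHX2 moved differently from its relatives was tested on the difference of signals within each array, in the same fit. The hairpins target ZHX2, so these differences largely restate its fall and are no separate evidence. In the mean of both hairpins ZHX2 moved by -1.65 log2 units relative to ZHX3 (SE 0.103, adjusted p = 0.00134). Relative to ZHX1/C8orf76 it moved by -1.57 (SE 0.0885, adjusted p = 0.00106), and relative to HOMEZ by -1.06 (SE 0.136, adjusted p = 0.00632). Each difference passed in all 14 alternatives run on it.

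**Figure D2:**
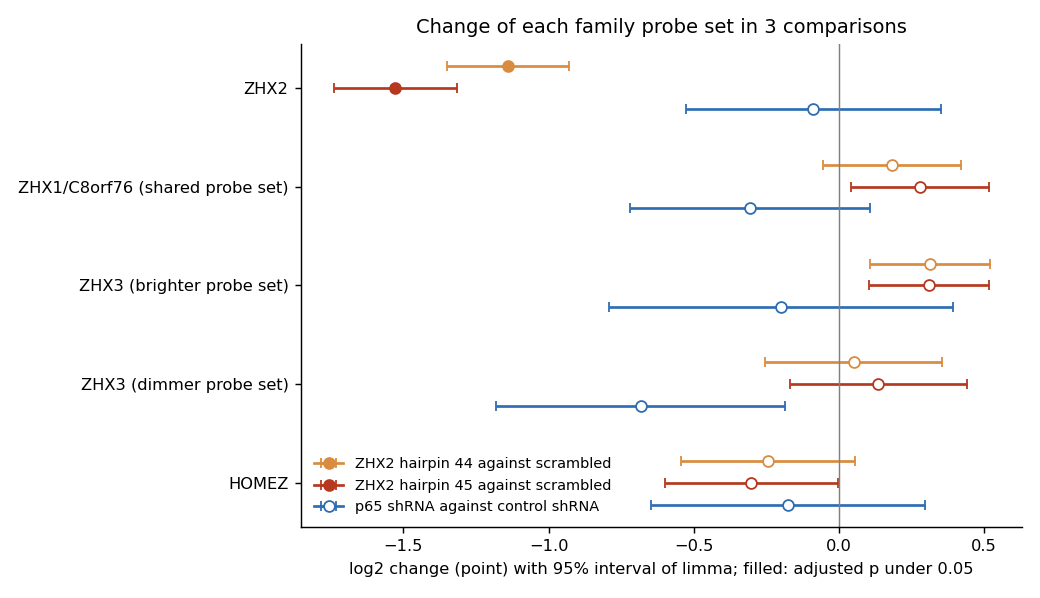
Log2 change (horizontal axis) of each family probe set with its 95% interval, for hairpin 44 and hairpin 45 against scrambled and p65 shRNA against control shRNA. Filled points passed an adjusted p under 0.05, which was ZHX2 at -1.14 and -1.53. The intervals of the brighter ZHX3 probe set lie above 0 for both hairpins, at 0.11 to 0.52 and 0.10 to 0.52.

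**Figure D3:**
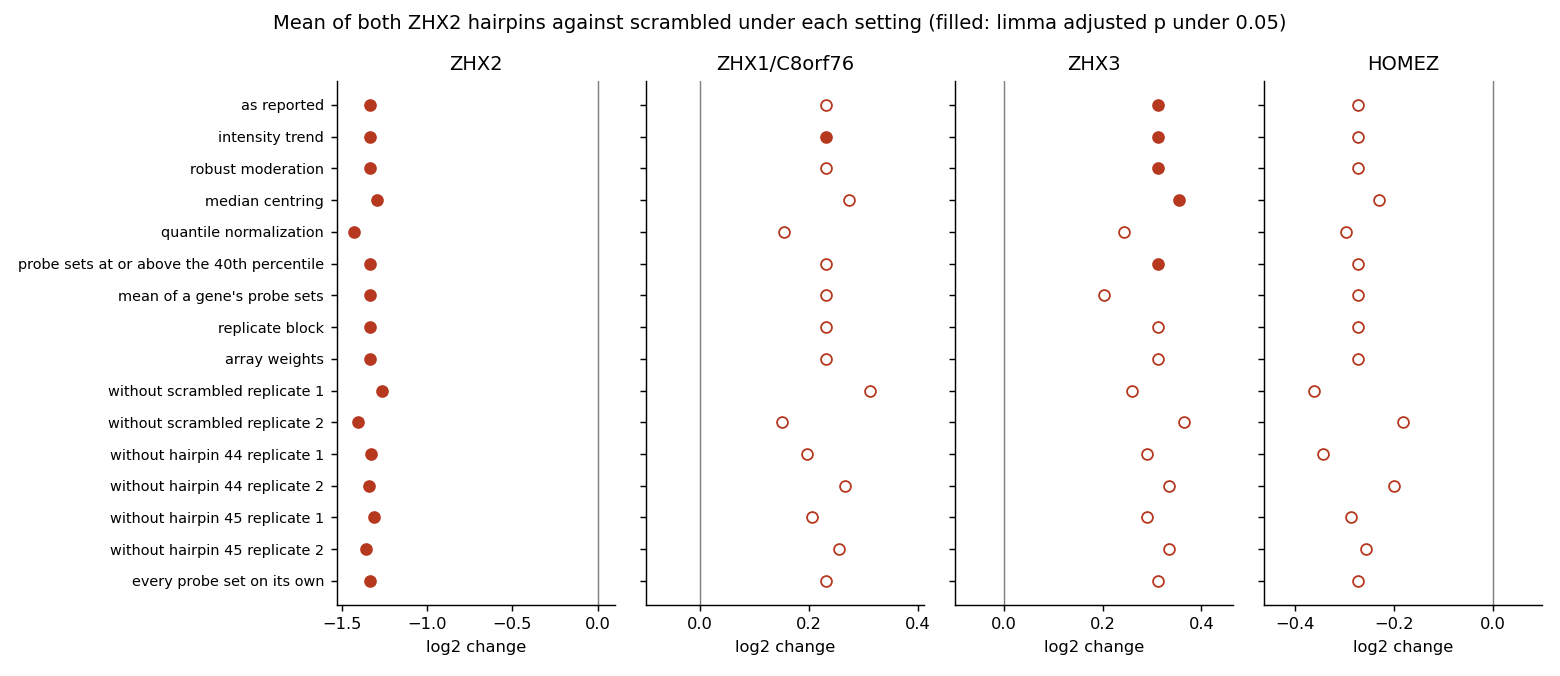
Log2 change (horizontal axis, its own range in each panel) in the mean of both ZHX2 hairpins under the reported and 15 alternative settings (vertical axis), for 4 member rows. Filled points passed an adjusted p under 0.05. ZHX2 is filled throughout between -1.43 and -1.26, ZHX3 is filled as reported and in 4 alternatives, and no panel crosses 0.

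The p65 arrays asked whether lowering RELA altered the family. No member was called, against 0% of all rows, since limma called 0 genes in this comparison. An unadjusted p under 0.05 was reached by 3216 genes, and with moderation that followed intensity there were 866 calls, 3.86% of rows, with 0 members among them.

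ZHX2 read 7.75 and 7.82 in the control arrays and 7.60 and 7.79 in the p65 arrays, and the groups overlapped. Its change was -0.09 (SE 0.175, 95% interval -0.53 to 0.35, adjusted p = 0.861). The lower bound of -0.53 lies above the changes of -1.14 and -1.53 that the ZHX2 hairpins gave in the other table. The tables differ in platform, signal scale and control, so the sizes of change may not compare directly. HOMEZ read 3.67 and 3.47 in the controls and 3.28 and 3.51 with p65 shRNA, a change of -0.17 (95% interval -0.65 to 0.30, adjusted p = 0.731).

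The brighter ZHX3 probe set read 4.80 and 4.30 in the controls and 4.23 and 4.47 with p65 shRNA, with overlap and a change of -0.20 (adjusted p = 0.757). The dimmer ZHX3 probe set separated the groups, at 2.54 and 2.27 in the controls and 1.71 and 1.74 with p65 shRNA. Its change was -0.68 (SE 0.188, unadjusted p = 0.0174, adjusted p = 0.410 over all probe sets). ZHX1/C8orf76 read 5.89 and 5.84 in the controls and 5.53 and 5.59 with p65 shRNA. Its arrays did not overlap either, as in 46% of all rows, and the change was -0.31 (SE 0.164, 95% interval -0.72 to 0.11, adjusted p = 0.471).

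Genes linked to the family were read from 3 lists. Among binding partners and the VHL axis, 11 of 12 genes were measured in the mean of both hairpins, and 1 rose, 2 fell and 8 did not pass the test, against 11.9% of all rows higher and 6.41% lower. Their median change was 0.06, against -0.0042 over all rows. DNMT3B, the DNA methyltransferase that ZHX1 is known to bind, read 8.93 and 8.80 in the scrambled arrays, 8.25 and 8.21 for hairpin 44, and 8.15 and 7.91 for hairpin 45. It was lower in all 4 hairpin arrays, with a change of -0.74 (SE 0.0915, adjusted p = 0.00578).

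ENPEP, a membrane aminopeptidase of the kidney, read 9.14 and 8.97 in the scrambled arrays, 8.71 and 8.74 for hairpin 44, and 8.36 and 8.35 for hairpin 45. It fell by 0.52 (SE 0.0736, adjusted p = 0.0086), with the lowest values under hairpin 45, and did not pass with hairpin 44 alone. RELA itself rose by 0.44 (SE 0.0689, adjusted p = 0.0112), from 9.34 and 9.23 in the scrambled arrays to 9.64 and 9.68 for hairpin 44 and 9.82 and 9.75 for hairpin 45. Leaving out scrambled replicate 2 ended the RELA call (adjusted p = 0.0554).

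The 3 NF-Y subunit genes did not pass, with NFYA at 0.08, NFYB at 0.06 and NFYC at -0.08. NFYA read 10.06 and 9.97 in the scrambled arrays, 9.90 and 9.95 for hairpin 44, and 10.27 and 10.25 for hairpin 45. Its hairpin 45 arrays lay above the others and its hairpin 44 arrays below the scrambled ones (difference between hairpins 0.34, SE 0.0752, adjusted p = 0.152). NFYA, NFYB and NFYC fall outside the rule for named genes and were singled out after their values were seen. The uncalled genes with the smallest p were EFNB1, a membrane ligand, at 0.31 (adjusted p = 0.102), the chromatin reader ZMYND11 at -0.11 (adjusted p = 0.296) and VHL at 0.13 (adjusted p = 0.403).

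Of 7 genes reported as ZHX2 targets in other tissues, 6 were measured. Each hairpin alone called 1 of them higher, ABCB1 for hairpin 44 and CCNA2 for hairpin 45. The background shares called were 7.65% and 20.1% of rows. In the mean of both hairpins 3 rose, 0 fell and 3 did not pass, with a median change of 0.16, against 11.9% of all rows higher and 6.41% lower. Over the removals of single arrays the rises numbered 0 to 3, with 0 without scrambled, hairpin 44 or hairpin 45 replicate 2. ABCB1, a drug efflux pump, read 7.79 and 7.77 in the scrambled arrays, 8.21 and 8.29 for hairpin 44, and 8.02 and 8.09 for hairpin 45. It was higher in all hairpin arrays, by 0.37 (SE 0.0655, adjusted p = 0.0151). The call was lost in 3 of 14 alternatives, without scrambled, hairpin 44 or hairpin 45 replicate 2, with adjusted p from 0.0574 to 0.068.

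The cyclins CCNA2 and CCNE1, which drive entry into and passage through S phase, rose by 0.29 (adjusted p = 0.0403) and 0.34 (adjusted p = 0.0498). These 2 calls were lost in 8 and 9 of 14 alternatives. The liver genes AFP and GPC3 were at -0.02 (adjusted p = 0.962) and -0.18 (adjusted p = 0.194), and the lipase LPL was at 0.03 (adjusted p = 0.853). These were dim genes. In the scrambled arrays AFP lay at percentiles 7.59 and 5.16 of genes, GPC3 at 10.9 and 12.3, and LPL at 19.2 and 18.4. Whether they were expressed was not tested.

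All 10 genes that pair zinc fingers with homeoboxes outside the family were measured, and 0 rose, 2 fell and 8 did not pass, with a median change of -0.18, against 11.9% of all rows higher and 6.41% lower. With moderation that followed intensity 2 rose, ZEB1 (adjusted p = 0.0145) and ADNP2 (adjusted p = 0.0417), and 4 fell. In that setting 26.2% of all rows were called, 3882 higher and 1994 lower. ZEB2, a repressor of epithelial genes, read 8.43 and 8.41 in the scrambled arrays, 8.05 and 8.04 for hairpin 44, and 7.96 and 8.04 for hairpin 45. It fell by 0.40 (SE 0.0636, adjusted p = 0.0113), to a like level with each hairpin, and leaving out scrambled replicate 2 ended the call (adjusted p = 0.05005).

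ZFHX4 fell by 0.33 (SE 0.0759, adjusted p = 0.0349), a call lost in 7 of 14 alternatives. TSHZ2 at -0.30 (adjusted p = 0.0645), ZEB1, the close relative of ZEB2, at 0.26 (adjusted p = 0.0757) and ADNP at -0.20 (adjusted p = 0.0765) did not pass. ADNP did pass there with moderation that followed intensity, a further quantile normalization or a filter at the 40th percentile of signal. Hairpin 45 alone called ADNP, ZEB2 and ZFHX4 lower (20.1% of rows called), and hairpin 44 alone called only ZEB2 (7.65%).

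With p65 shRNA 0 genes of these 3 lists were called. With moderation that followed intensity, where 3.86% of rows were called, 2 partners passed, RELA at -2.50 and ENPEP at 1.11 (adjusted p = 0.0171). RELA is the gene that the p65 shRNA targets, so its fall is no result about the partners. Among the other lists that moderation also called CCNA2 at -1.77 (adjusted p = 0.00313) and ZFHX4 at 0.87 (adjusted p = 0.0162).

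**Figure D4:**
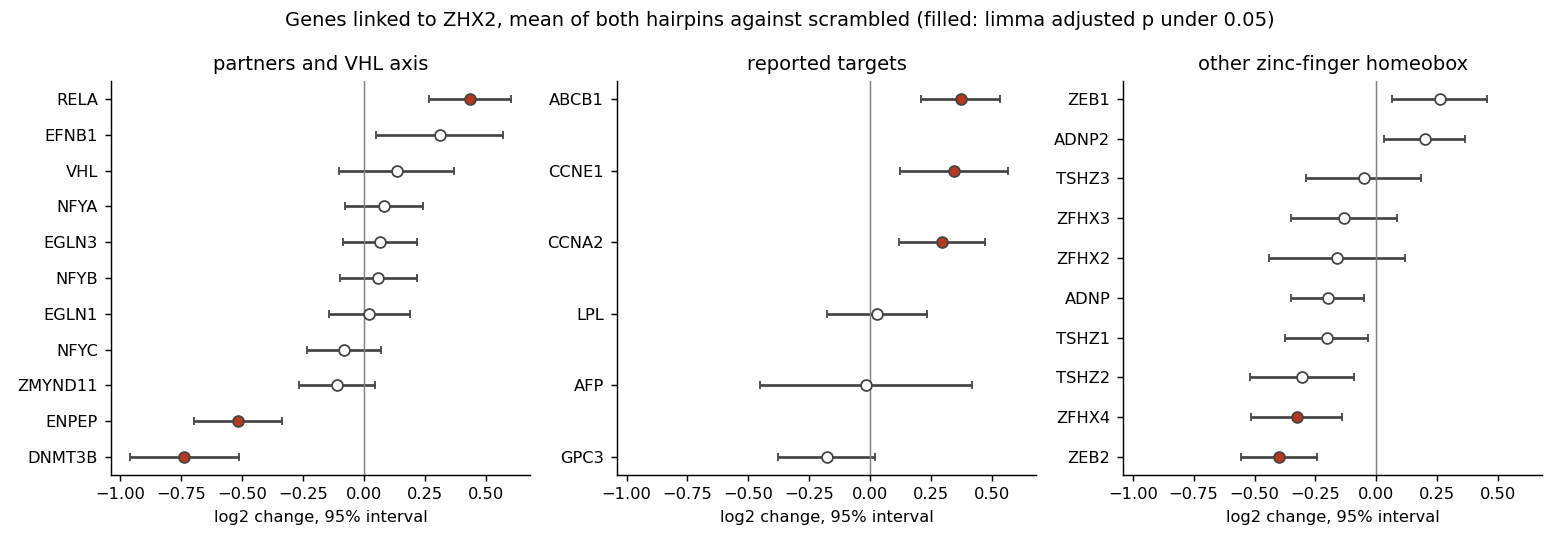
Log2 change (horizontal axis) with 95% interval in the mean of both ZHX2 hairpins for measured genes of the partner, target and zinc-finger homeobox lists (1 panel each). Filled points passed an adjusted p under 0.05. DNMT3B at -0.74 lies farthest from 0, and RELA at 0.44 is the largest rise.

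The genes beside each member on its chromosome were taken as the 3 protein-coding genes on each side in RefSeq order. ZHX1 and ZHX2 lie near each other on chromosome 8, so TBC1D31 and FAM83A count for both. Around ZHX2, hairpin 44 alone called HAS2 and SNTB1 higher (7.65% of rows called). Hairpin 45 alone called HAS2, MTBP, DERL1 and TBC1D31 higher (20.1% of rows called). In the mean of both hairpins 4 of 6 neighbours rose and 0 fell, with a median of 0.32, against 11.9% of all rows higher and 6.41% lower. Over the removals of single arrays 1 to 3 rises were called, with HAS2 alone in all but the removal of scrambled replicate 1. HAS2, the hyaluronan synthase gene next to ZHX2, read 6.51 and 6.46 in the scrambled arrays, 6.89 and 6.87 for hairpin 44, and 7.67 and 7.78 for hairpin 45. The 3 groups did not overlap and followed the order of ZHX2 loss.

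HAS2 rose by 0.82 in the mean of both hairpins (SE 0.0675, adjusted p = 0.00229), by 0.40 with hairpin 44 and by 1.23 with hairpin 45. It was 0.84 higher with hairpin 45 than with hairpin 44 (SE 0.0779, adjusted p = 0.0269). The call in the mean of both hairpins held in all 14 alternatives, while that between hairpins was lost in 8 of 15, among them the removal of any 1 array (adjusted p from 0.078 to 0.237). SNTB1, a syntrophin gene beyond HAS2, read 9.75 and 9.77 in the scrambled arrays, 10.32 and 10.27 for hairpin 44, and 9.60 and 9.62 for hairpin 45. It rose by 0.54 for hairpin 44 (SE 0.071, adjusted p = 0.0156) and was at -0.15 for hairpin 45 (adjusted p = 0.208), so it did not follow the order of HAS2. The difference between hairpins was -0.69 (SE 0.071, adjusted p = 0.0321), lost in 8 of 15 alternatives, among them the removal of any 1 array (adjusted p from 0.0803 to 0.291). In the mean of both hairpins SNTB1 was at 0.19 (adjusted p = 0.0847) and FAM83A at -0.09 (adjusted p = 0.597). MTBP rose by 0.35, DERL1 by 0.28 and TBC1D31 by 0.36, and each of those calls was lost in 8 of 14 alternatives.

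Around ZHX1, hairpin 44 alone called ATAD2 higher (7.65% of rows called). Hairpin 45 alone called ATAD2, NTAQ1 and TBC1D31 higher and FBXO32 lower (20.1% of rows called). In the mean of both hairpins 3 of 5 measured neighbours rose and 1 fell, against 11.9% of all rows higher and 6.41% lower. Over the removals of single arrays the rises numbered 1 to 3, with ATAD2 alone in all but the removal of scrambled replicate 1. ATAD2, a bromodomain ATPase next to ZHX1, read 9.54 and 9.54 in the scrambled arrays, 10.10 and 10.11 for hairpin 44, and 10.03 and 10.06 for hairpin 45. It rose by 0.54 (SE 0.0603, adjusted p = 0.00459). FBXO32, a ubiquitin ligase component, read 7.49 and 7.39 in the scrambled arrays, 7.26 and 7.17 for hairpin 44, and 6.69 and 6.76 for hairpin 45. It fell by 0.47 (SE 0.0717, adjusted p = 0.0103), and both of these calls held in all 14 alternatives. NTAQ1 rose by 0.40 (adjusted p = 0.0342, lost in 7 of 14).

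Beside ZHX3, hairpin 44 alone called no measured neighbour (7.65% of rows called). Hairpin 45 alone called LPIN3 lower and TOP1 higher (20.1% of rows called). In the mean of both hairpins 0 of 5 measured neighbours rose and 2 fell, against 11.9% of all rows higher and 6.41% lower. Without any 1 array, 1 fall was called, LPIN3. LPIN3, a lipin family phosphatase, read 9.75 and 9.71 in the scrambled arrays, 9.42 and 9.36 for hairpin 44, and 9.14 and 9.24 for hairpin 45. It fell by 0.44 (SE 0.0677, adjusted p = 0.0105), held in all 14 alternatives, while ZHX3 next to it was higher. CHD6 fell by 0.28 (adjusted p = 0.0413, lost in 9 of 14). TOP1, which encodes a topoisomerase, was at 0.24 (adjusted p = 0.0553), and it passed with moderation that followed intensity (adjusted p = 0.000817) and for hairpin 45 alone (0.30, adjusted p = 0.0412). PLCG1 was at -0.16 and EMILIN3 at 0.04. None of the 4 measured neighbours of HOMEZ was called in the mean of both hairpins, with RNF212B at -0.26, PPP1R3E at -0.10, SLC7A8 at -0.02 and CEBPE at 0.04.

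The 5 genes whose signal was most like that of ZHX2 over the 6 arrays were taken by the smallest root mean square difference after each gene was centred on its own mean. They were CP (0.0641), DPP4 (0.0744), ACMSD (0.0765), CA2 (0.0849) and KLHL24 (0.087), in log2 units. Their correlations with ZHX2 lay between 0.991 and 0.999 over 6 arrays that fall into 3 groups, and they are a description of genes chosen for this likeness.

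CP, which encodes ceruloplasmin, read 10.47 and 10.47 in the scrambled arrays, 9.40 and 9.46 for hairpin 44, and 9.02 and 9.07 for hairpin 45. DPP4, a membrane peptidase of the proximal tubule, read 10.82 and 10.72, then 9.65 and 9.63, then 9.17 and 9.10 in the same groups. Both step down in the order of ZHX2, a pattern set by how they were chosen. In the separate p65 table these genes went different ways, with CP at -3.10 (adjusted p = 0.0949), DPP4 at 0.97, ACMSD at -0.82, CA2 at -0.33 and KLHL24 at 1.42 (adjusted p = 0.0744). None was called, and neither was any other row in that comparison.

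**Figure D5:**
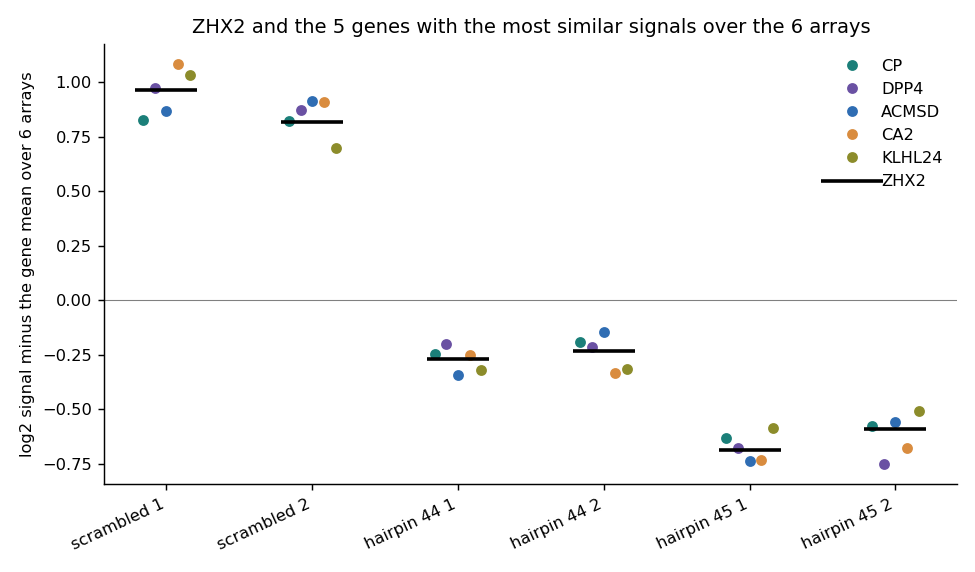
Log2 signal minus each gene's own mean (vertical axis) on the 6 arrays of the ZHX2 table (horizontal axis) for ZHX2 (black dashes) and the 5 genes chosen as most like it (coloured points). CP lies within a root mean square difference of 0.0641 of ZHX2 and KLHL24 within 0.087.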

How the data were processed

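Total RNA of 786-O cells was measured on Affymetrix arrays in 5 groups of 2. The authors deposited log2 signals from RMA (background correction, normalization and a summary per probe set), which the submitters' processing notes name, and the values' range fits a log2 scale. The software, its version and the build were not given in the sources used here. A probe set was named where the platform annotations of both tables gave 1 gene, or 1 table did and the other none, with symbols updated through RefSeq's GRCh38.p14 table. This named 24480 of 53617 probe sets for 22432 genes.

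For each gene the probe set with the highest mean signal was used (1103 genes had several), and the ZHX1/C8orf76 probe set was kept as 1 more row. Comparisons used limma 3.58.1 in R 4.3.3, with group means and empirical Bayes moderation without trend, and 3 (ZHX2 table) or 2 (p65 table) residual degrees of freedom. Adjusted p-values are limma's, Benjamini-Hochberg over all rows, called under 0.05, and intervals cover 95%. A probe set fit tested the dimmer ZHX3 probe set. The script was tested on simulated data. The number of arrays limits the precision, and no detection measure was used.

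The members and lists were chosen with earlier results of these data known. Named genes are the members, every called list gene, up to 3 uncalled genes per list with the smallest p, the 3 coding neighbours on each side and the 5 genes most like ZHX2. The alternatives changed moderation, centring, normalization, a filter at the 40th percentile of signal, the choice of probe set, a replicate block, array weights, the groups fitted and the arrays kept, and applying them to HAS2 and SNTB1 between hairpins was chosen after seeing the data. NFYA, NFYB, NFYC, EGLN1 and ADNP2 were named after their values were seen.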

Additional observations from a re-analysis of the deposited data

Results flagged for a closer look

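HAS2, a neighbour of ZHX2, differed between the hairpins by a test of the difference itself. It was 0.84 log2 units higher with hairpin 45 than with hairpin 44 (SE 0.0779, limma adjusted p = 0.0269), against a background of 0.397% of rows called, and the call was lost without any 1 array, with only these groups fitted and with a replicate block (adjusted p from 0.078 to 0.237). SNTB1, another neighbour, differed the other way, at -0.69 (SE 0.071, limma adjusted p = 0.0321), and lost the call under the same settings (adjusted p from 0.0803 to 0.291).

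For NFYA and EGLN1 both hairpin 45 arrays lay above the scrambled mean and both hairpin 44 arrays below it. The EGLN1 groups overlapped, with scrambled arrays at 8.54 and 8.41. Its hairpin 44 arrays (8.45 and 8.46) and hairpin 45 replicate 2 (8.52) lay between those values. The difference between hairpins was 0.34 for NFYA (limma adjusted p = 0.152) and 0.0885 for EGLN1 (limma adjusted p = 0.653), and neither passed the test. No group has enough arrays for a test of single arrays that stand apart.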

How the results depend on the processing

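ZHX2 kept its direction and call in every alternative for the mean of both hairpins and for hairpin 45. For hairpin 44 it was lost only without either hairpin 44 array, with changes from -1.21 to -1.07 over the single-array removals. Of the 2 members called in the mean of both hairpins, 1 remained with quantile normalization, averaged probe sets, array weights or every probe set on its own, and 1 to 1 when single arrays were left out. For hairpin 44, 1 member was called, 2 with the intensity trend or the filter, and 0 to 1 without single arrays. For hairpin 45, 1 was called as reported, where 4513 genes were called in all. It was 3 with the trend, where 6254 genes were called. With median centring or the filter it was 2, where 4594 and 5609 genes were called. Between hairpins 0 were called, and 1 (ZHX2) with the trend. Uncalled changes that turned sign were ZHX3 between hairpins (0.0199 with median centring, 0.0412 with its probe sets averaged, -0.0474 to 0.0437 without single arrays), HOMEZ between hairpins (-0.202 to 0.0866 without single arrays), and with p65 shRNA ZHX3 (-0.453 to 0.0541) and ZHX2 (-0.186 to 0.0101). The cause was not tested.

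Replicate numbers did not pair the arrays: deviations of same-numbered arrays correlated at -0.0263, 0.0543 and 0.0269 in the ZHX2 table and 0.0096 in the p65 table. With a replicate block 1 member was called in the mean of both hairpins (ZHX3 adjusted p = 0.0624), and 3384 genes in place of 4102. Without single arrays 1788 to 3340 genes were called in the mean of both hairpins. For hairpin 44 they were 1716, and 3941 with the trend, 3062 with the filter, 820 with the block, 575 with only its 2 groups and 3 to 595 without single arrays. For hairpin 45 they were 4513, and 1134 to 3974 without single arrays. Between hairpins they were 89, and 1468 with the trend, 400 with the filter, 207 with array weights, 11 with the block, 3 with only those groups and 0 to 4 without single arrays. With every probe set tested on its own, the calls were 2082, 304, 2371 and 5 in the same order of comparisons. That fit covers 53617 probe sets in place of 22433 rows, so its calls are not in the same unit as the gene counts.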
